A study of Mus musculus with 16 samples.

Results

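The Wnt genes described here are 44 genes of the mouse array: the ligands (every Wnt symbol, 19 genes), the receptors (every Frizzled symbol with Lrp5, Lrp6 and Lgr5, 13 genes), the secreted antagonists (every Sfrp and Dkk symbol with Wif1, 9 genes) and 3 genes at the nuclear end of the pathway, Lef1, Tcf7 and Axin2. They were chosen by symbol alone among the 20972 genes with a named probe. The cells were mouse embryonic stem cells of the line E14tg2a, which in every group carried a c-Raf fusion that becomes an active kinase when tamoxifen is given, and which were kept on gelatin in serum with LIF, a cytokine that maintains self-renewal. The groups were DMSO (vehicle only), 0h (24 h of 250 nM PD173074, an inhibitor of FGF receptors, with no induction), and 6 lengths of induction with 250 nM 4-hydroxytamoxifen (4OHT), given after the same 24 h of inhibitor, which stayed in the medium: 30m and 1h, 2h and 4h, then 8h and 24h. The series names the stimulation of Erk over time as its subject. Each of the 8 groups held 2 arrays, and the labels do not say whether these came from separate cultures, so p-values measure the spread between these arrays, which may be technical. The labels do not say whether the line was 1 clone, and cells given 4OHT without the fusion or without the inhibitor were not analysed here. A longer induction also meant longer in the inhibitor and in culture, and no uninduced group was matched to it in time. In the comparisons with 0h these cannot be told apart.

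Wnt ligands are secreted, lipid-modified proteins that bind a Frizzled receptor, in the best known branch together with Lrp5 or Lrp6, and so keep beta-catenin from being broken down. Stabilised beta-catenin enters the nucleus and works with the TCF/LEF proteins, among them Lef1, Tcf7 and Tcf7l1, on target genes such as Axin2, which feeds back on the pathway by restoring the destruction complex. Sfrp proteins and Wif1 bind the ligands outside the cell, and Dkk1 blocks Lrp5 and Lrp6. In mouse embryonic stem cells the pathway is known for relieving the repression of self-renewal genes by Tcf7l1, and in the mouse embryo Wnt3 is needed for the primitive streak.

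Levels are log2 signals of each gene's brightest probe minus the 75th percentile of the array, so 0 is the level of that percentile, and they are compared between arrays of the same probe only. The arrays had 54.9 to 67.2% of spots well above background, and the correlation between the replicates of a group was 0.982 to 0.99 over genes. A gene was tested if in at least 1 group both arrays gave a signal well above background for its probe, which held for 15660 of 20972 genes and for 37 of the 44 Wnt genes (15 ligands, 12 receptors, 7 antagonists and the 3 nuclear-end genes). A gene is called where limma's adjusted p over all tested genes was below 0.05, and changes are given as log2 differences ± SE of the fit. The deposited value table and the sample records of the scanner files assign 8 of the 16 arrays differently. The values here follow the headings of the value table, and with the other assignment 1 Wnt gene was called at 24h vs 0h in place of 15, and 0 at 8h vs 0h in place of 12. At 24h vs DMSO 3 were then higher and 0 lower, in place of 2 and 5. Of the 48 calls of single genes given here, 42 could be tested again with that assignment and 0 of these were called in the same direction. Under the value table the replicate number is also the slide, and the numbers pair the arrays, so a fit with the replicate as a block is given where it changed a call. All 4 genes listed as a check of the stimulus (Egr1, Fos, Spry4 and Dusp6, known Erk targets) were called higher at 24h vs 0h, and all 12 embryonic stem cell markers on the list were well above background on every array of every group.

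In 0h vs DMSO, 2 of the 37 tested genes rose (Wnt3 and Sfrp5) and 3 fell (Wnt5b, Wnt8a and Fzd7), 5 called genes in all, while 3.49% of all tested genes were called (2.21% higher and 1.28% lower). With the block 6 Wnt genes were called, the added one being Fzd10, against 14.9% of all tested genes. With other scalings the split of 2 higher and 3 lower became 3 and 1 (median centring) or 2 and 2 (quantile normalization).

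After induction no Wnt gene was called at 30m vs 0h or at 1h vs 0h, where 0% of all tested genes were called by limma in either direction (with the block, 0% at 30m and 0.0192% at 1h). At an unadjusted p below 0.05 there were 0 Wnt genes at both times, beside 96 and 345 of all tested genes. Of the 4 stimulus genes 0 were called at 1h vs 0h, and 2 with the block. Egr1 rose there by 3.77 ± 0.57 (adjusted p = 0.404, with the block 0.00378). Fos rose by 3.55 ± 0.46 (adjusted p = 0.231, with the block 0.00914). A count of 0 at these early times therefore does not show that no gene changed. At 2h vs 0h the count of Wnt genes was 0, against 0.115% of all tested genes (0.102% higher and 0.0128% lower). At an unadjusted p below 0.05 it was 5 of 37, beside 950 of all tested genes (6.07%). With the block Wnt3 alone was called at 2h, among 0.479% of all tested genes.

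At 4h vs 0h 1 Wnt gene rose (Wif1) and 2 fell (Wnt3 and Fzd2), against 3.19% of all tested genes (1.49% higher and 1.7% lower). With the block 3 rose and 6 fell, against 16.1% of all tested genes. At 8h vs 0h 4 rose (Wnt5b, Wnt6, Wnt7b and Wif1) and 8 fell, 12 of 37, against 6.65% of all tested genes (3.12% higher and 3.52% lower). With the block these were 8 and 11, 19 of 37, against 21% of all tested genes. At 24h vs 0h 3 rose (Wnt5b, Wnt8a and Axin2) and 12 fell, 15 of 37 or 40.5%, against 23.7% of all tested genes (10.8% higher and 12.9% lower). With the block the count at 24h was 19 of 37 against 39.5%. These comparisons all use the same 0h arrays.

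**Figure D1:**
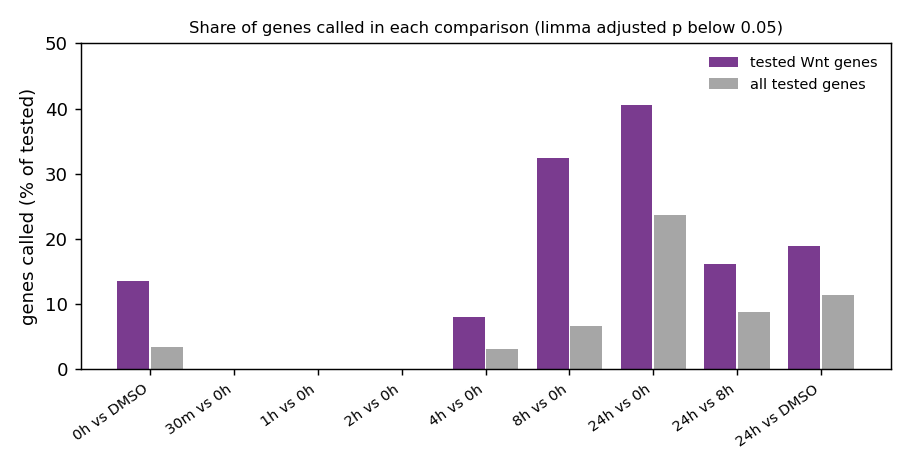
Share of genes called (limma adjusted p below 0.05, vertical axis in % of tested genes) in each of 9 comparisons, for the 37 tested Wnt genes and for all 15660 tested genes, which include them. At 0h vs DMSO 13.5% of the Wnt genes were called beside 3.49% of all genes, after induction none up to 2h, 32.4% were called at 8h vs 0h beside 6.65% of all genes, and 40.5% at 24h vs 0h beside 23.7%.

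Between the late times, 24h vs 8h had 3 Wnt genes higher (Wnt5b, Fzd9 and Axin2) and 3 lower (Wnt10a, Wnt6 and Wif1), against 8.84% of all tested genes (5.24% higher and 3.6% lower). With the block these were 5 and 7, against 22.9%, and the main split of 3 and 3 became 0 higher and 4 lower with median centring and 2 and 5 with quantile normalization. In 24h vs DMSO 2 were higher (Wnt5b and Wnt7b) and 5 lower (Fzd2, Fzd5, Fzd8, Sfrp1 and Dkk3), against 11.4% of all tested genes (6.56% higher and 4.8% lower). With the block these were 4 and 8, against 26%. The split of 4h vs 0h became 2 and 2 with quantile normalization, 1 and 1 with median centring and 2 and 1 with normexp, that of 8h vs 0h 3 and 3 with median centring and 4 and 5 with normexp, and that of 24h vs DMSO 1 and 5 with quantile normalization.

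Over the 8 groups together, limma's F test called 17 of the 37 Wnt genes, against 22.8% of all tested genes, and 24 of 37 with the block, against 49.2%. Called in at least 1 of the 9 comparisons were 21 of the 37 genes, against 29.7% of all tested genes, and 16 were called in none. By role, 6 of the 7 tested antagonists fell at 24h vs 0h, beside 12.9% of all tested genes called lower, and the remaining one, Sfrp4, stood at -0.29 ± 0.47. The receptors had 5 of 12 lower and none higher, and the ligands 2 of 15 higher and 1 lower. Differences between the roles were not tested. The median change at 24h vs 0h was -1.82 for the tested antagonists, -0.14 for the receptors and 0.32 for the ligands, beside -0.01 for all tested genes.

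**Figure D2:**
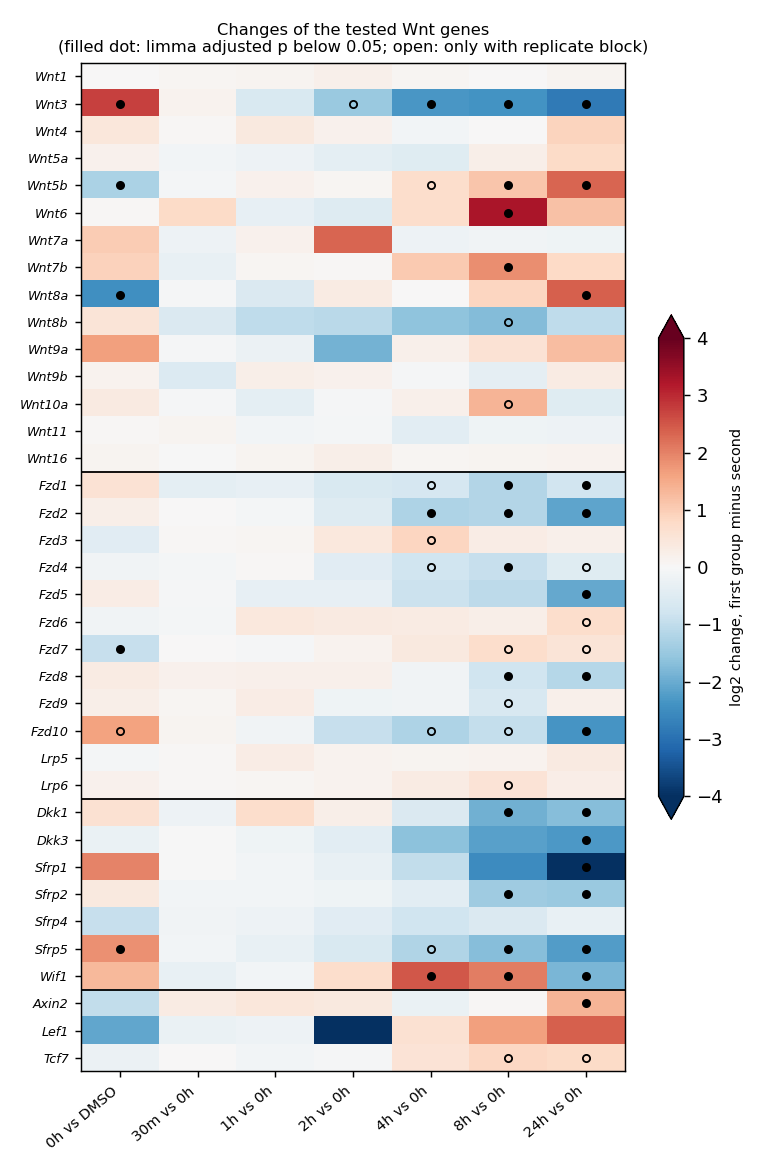
Log2 change (colour, first group minus second) of each of the 37 tested Wnt genes in 7 comparisons, with lines between ligands, receptors, antagonists and nuclear-end genes. Filled dots mark calls (limma adjusted p below 0.05) and open dots calls made only with the replicate block. The columns up to 2h hold no filled dot after induction, and the antagonists Sfrp1, Sfrp2, Sfrp5, Dkk1, Dkk3 and Wif1 all carry one at 24h. The deep cells of Lef1 and Wnt7a at 2h each rest on 1 array.

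Among the ligands, Wnt3, the ligand of the mouse primitive streak, was high under the inhibitor and lower from 4h of induction on. Its levels were -7.03 and -6.42 in DMSO, -4.38 and -3.61 at 0h, -3.95 and -3.72 at 30m, -4.76 and -4.42 at 1h, -5.72 and -5.25 at 2h, -6.64 and -5.99 at 4h, -6.47 and -6.32 at 8h and -6.62 and -7.00 at 24h. The 4 arrays of 0h and 30m lay above all others, and only 5 arrays (0h, 30m and 1h replicate 2) were well above background, so Wnt3 was tested through the groups in which it was high. It was at least 1.91-fold higher at 0h than in DMSO (adjusted p = 0.00425). Compared with 0h it was at least 1.88-fold lower at 4h (adjusted p = 0.00953), at least 2.07-fold lower at 8h (adjusted p = 0.0037) and at least 1.52-fold lower at 24h (adjusted p = 0.000337). These bounds set the dim arrays at their lowest signal above background, so they do not rank the times. At 2h the bound was at least 1.90-fold lower, with an adjusted p = 0.263 that became 0.0328 with the block. In these bulk samples fewer cells that make an RNA and less of it per cell cannot be told apart, here and in what follows.

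Wnt5b, a ligand known mostly for signalling that does not need beta-catenin, was low under the inhibitor and highest at 24h. Its levels were -1.01 and -1.41 in DMSO, -2.36 and -2.61 at 0h, -2.46 and -2.66 at 30m, -2.27 and -2.39 at 1h, -2.17 and -2.63 at 2h, -1.56 and -2.0 at 4h, -1.34 and -1.43 at 8h and 0.29 and -0.61 at 24h. Both arrays of 24h lay above all others, and the arrays of 0h, 30m, 1h and 2h lay below those of DMSO, 4h, 8h and 24h. Wnt5b fell by 1.28 ± 0.29 at 0h vs DMSO (adjusted p = 0.0397), rose by 1.1 ± 0.29 at 8h vs 0h (adjusted p = 0.0488) and rose by 2.33 ± 0.29 at 24h vs 0h (adjusted p = 0.000479). At 24h it was also above 8h by 1.23 ± 0.29 (adjusted p = 0.0259) and above DMSO by 1.05 ± 0.29 (adjusted p = 0.0422). At 4h its change of 0.71 ± 0.29 was called by the block fit alone (adjusted p = 0.0269, against 0.214 without).

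Wnt6, a ligand of early epithelia, had the highest rise of any Wnt gene at 8h. Its levels were -2.46 and -2.38 in DMSO, -2.66 and -2.11 at 0h, -1.08 and -2.14 at 30m, -2.86 and -2.56 at 1h, -3.17 and -2.64 at 2h, -1.31 and -2.05 at 4h, 1.27 and 0.49 at 8h and -1.57 and -0.88 at 24h. The 8h arrays lay above all others, and replicate 1 of 30m stood apart from replicate 2. Wnt6 rose by 3.27 ± 0.42 at 8h vs 0h (adjusted p = 0.00292) and was lower at 24h than at 8h by 2.11 ± 0.42 (adjusted p = 0.0131). At 24h vs 0h the difference of 1.16 ± 0.42 was not called (adjusted p = 0.0738).

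Wnt7b and Wnt10a, ligands known for acting through beta-catenin in epithelia, were also highest at 8h. The levels of Wnt7b were -3.90 and -3.44 in DMSO, -3.14 and -2.38 at 0h, -3.33 and -2.76 at 30m, -3.11 and -2.29 at 1h, -2.97 and -2.44 at 2h, -1.58 and -1.86 at 4h, -0.78 and -1.04 at 8h and -1.76 and -2.18 at 24h. Its 8h arrays lay above all others and its DMSO arrays below all others. Wnt7b rose by 1.85 ± 0.35 at 8h vs 0h (adjusted p = 0.0167) and was 1.70 ± 0.35 higher at 24h than in DMSO (adjusted p = 0.0141). Its difference of -1.06 ± 0.35 at 24h vs 8h was called by the block fit alone (adjusted p = 0.0413, against 0.098 without).

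The levels of Wnt10a were -4.39 and -4.16 in DMSO, -3.95 and -3.85 at 0h, -4.25 and -3.62 at 30m, -3.97 and -4.62 at 1h, -3.95 and -3.96 at 2h, -3.37 and -4.01 at 4h, -2.18 and -2.88 at 8h and -4.86 and -3.90 at 24h. The 8h arrays lay above all others, and the probe was not well above background on 1h replicate 2 and 24h replicate 1. Wnt10a fell by 1.85 ± 0.38 at 24h vs 8h (adjusted p = 0.0143), where 1 of the 2 arrays of 24h measured it. At 8h vs 0h its change of 1.37 ± 0.38 was called by the block fit alone (adjusted p = 0.0357, against 0.058 without).

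Wnt8a, which in the mouse embryo is expressed around the primitive streak, was measured mainly in DMSO and at 24h. Its levels were -3.29 and -3.30 in DMSO, -6.12 and -5.39 at 0h, -5.88 and -5.69 at 30m, -6.97 and -5.71 at 1h, -5.39 and -5.46 at 2h, -6.33 and -5.14 at 4h, -4.58 and -5.20 at 8h and -3.81 and -2.91 at 24h. The arrays of DMSO and 24h lay above all others, and replicate 1 of 8h was the only further array well above background, so Wnt8a too was tested through the groups in which it was high. Wnt8a was at least 3.70-fold lower at 0h than in DMSO (adjusted p = 0.028) and at least 3.54-fold higher at 24h than at 0h (adjusted p = 0.0062). At 24h vs 8h the difference of 1.53 ± 0.49 was called by the block fit alone (adjusted p = 0.0291, against 0.0856 without), where 1 of the 2 arrays of 8h measured it.

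**Figure D3:**
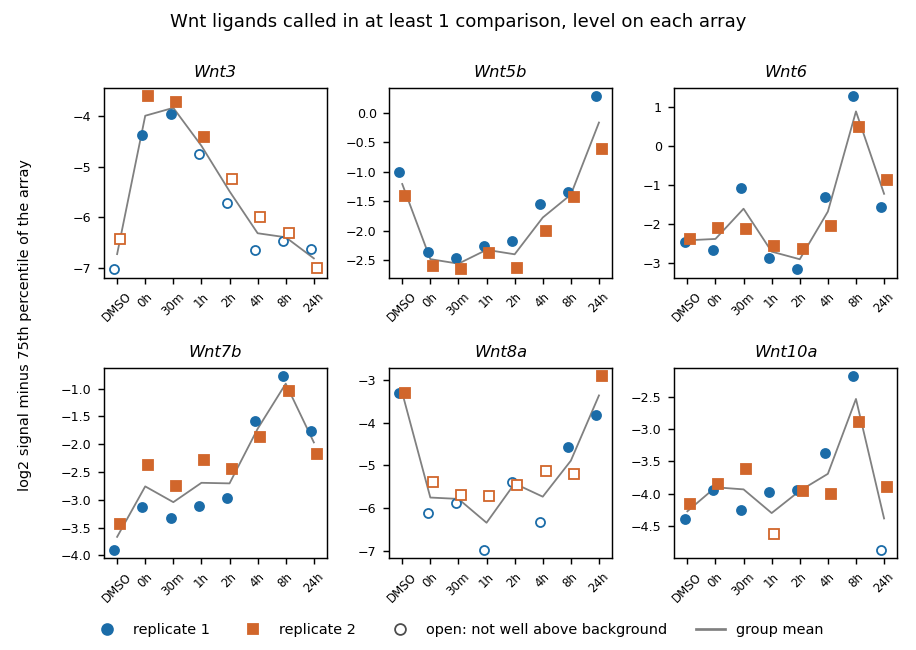
Level (log2 signal minus the array's 75th percentile, vertical axis) of 6 Wnt ligands on each array, by group; circles are replicate 1, squares replicate 2, open symbols are arrays where the probe was not well above background, and lines join group means. Wnt3 is highest at 0h and 30m, Wnt6, Wnt7b and Wnt10a at 8h, and Wnt5b at 24h, while Wnt8a is high in DMSO and at 24h.

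Of the remaining ligands, 9 were tested and not called in any comparison by their brightest probe: Wnt1, Wnt4, Wnt5a, Wnt7a, Wnt8b, Wnt9a, Wnt9b, Wnt11 and Wnt16. Wnt1, the founding member of the family, ranged from 0.37 to 1.04 over the 16 arrays and Wnt11 from -3.45 to -2.41, with both probes well above background on every array. Wnt4 stood at -2.37 and -2.95 at 24h, against -4.77 and -3.24 in DMSO, and this difference of 1.35 ± 0.56 was called by the block fit alone (adjusted p = 0.0348, against 0.158 without). A second, dimmer probe of Wnt4, well above background on 12 arrays, gave 1.48 ± 0.36 at 24h vs 0h (adjusted p = 0.0139), while the brighter probe gave 0.88 ± 0.56 (adjusted p = 0.302). The dimmer probe was also called at 24h vs DMSO, at 1.73 ± 0.36 (adjusted p = 0.0136), and at 24h vs 8h, at 1.71 ± 0.36 (adjusted p = 0.0164). It measured 1 of the 2 arrays of DMSO and 1 of the 2 arrays of 8h. A second probe of Wnt16, well above background on 11 arrays, was lower at 8h vs 0h by 1.07 ± 0.46 and at least 1.29-fold lower at 24h vs 0h. Both were called by the block fit alone (adjusted p = 0.0263 and 0.0151, against 0.202 and 0.132). The brighter probe of Wnt16 stood at 0.10 and 0.15 there. Wnt5a had -0.87 and -2.07 at 24h, against -2.40 and -2.08 at 0h, and the lower array of 24h and the higher array of 0h were nearly level. Wnt8b had -6.78 and -4.78 at 8h, against -4.34 and -3.76 at 0h, where 1 of the 2 arrays of 8h measured it, a difference called by the block fit alone (adjusted p = 0.0442, against 0.311 without).

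Single arrays set the ranges of 3 further ligands. Wnt7a stood at -4.89 and 0.75 on the 2h arrays, so that replicate 2 alone was bright, and its other 15 arrays lay between -5.89 and -3.89. Wnt9a stood at -6.70 and -3.63 in DMSO and -6.74 and -4.11 at 2h, with replicate 1 below background in both groups. Wnt2 was well above background on 1 array, replicate 1 of DMSO, at -3.63, while replicate 2 of DMSO was at -7.31. Wnt2b, Wnt3a and Wnt10b were well above background on 0 of the 16 arrays, and these 3 and Wnt2 were not tested.

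Leaving out each of the 16 arrays in turn, the calls of Wnt3 at 0h vs DMSO, 8h and 24h, of Wnt6 at 8h and of Wnt5b at 24h vs 0h were kept in all 16 fits. The call of Wnt8a at 24h vs 0h was lost without 0h replicate 1 (adjusted p = 0.0544), and at 0h vs DMSO it was lost without any 1 of the 4 arrays compared (adjusted p up to 0.163). Wnt3 at 4h was lost without 4h replicate 1 or 0h replicate 2 (adjusted p up to 0.1), and Wnt7b at 8h without replicate 1 of 0h or 8h (up to 0.154). The calls of Wnt6 and Wnt10a at 24h vs 8h were lost without replicate 1 of 8h or 24h (up to 0.12 and 0.127), and that of Wnt7b at 24h vs DMSO without replicate 1 of either group (up to 0.134). For Wnt5b the call was lost in 14 of the 16 fits at 8h, in 8 at 0h vs DMSO, in 3 at 24h vs 8h and in 11 at 24h vs DMSO, always with the sign kept.

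The promoters of Wnt3, Wnt5b and Wnt6 are printed because these ligands rose or fell at different times of the same stimulus. Each is the 250 bases before the transcription start in RefSeq (GRCm38.p6), written 5′ to 3′ on the gene's strand, and for Wnt5b the most upstream of 3 starts is shown. Capitals mark matches to 4 short motifs searched on both strands: the TCF/LEF motif ATCAAAG, the ETS motif CCGGAAG, the AP-1 motif TGANTCA and the Egr motif GCGTGGGCG. Wnt3 lies at chr11:103773925-103774174 on the plus strand, Wnt5b at chr6:119544348-119544597 on the minus strand and Wnt6 at chr1:74771642-74771891 on the plus strand.
Wnt3: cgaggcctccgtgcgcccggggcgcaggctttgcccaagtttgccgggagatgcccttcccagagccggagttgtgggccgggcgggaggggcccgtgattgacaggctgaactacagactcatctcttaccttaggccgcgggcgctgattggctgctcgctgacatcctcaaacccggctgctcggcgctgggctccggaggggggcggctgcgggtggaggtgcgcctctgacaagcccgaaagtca
Wnt5b: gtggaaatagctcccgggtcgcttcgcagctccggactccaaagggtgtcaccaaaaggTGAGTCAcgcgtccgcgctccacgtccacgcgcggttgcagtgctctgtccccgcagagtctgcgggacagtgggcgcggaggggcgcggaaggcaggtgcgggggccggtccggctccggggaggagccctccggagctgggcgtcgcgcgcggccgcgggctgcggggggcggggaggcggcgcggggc
Wnt6: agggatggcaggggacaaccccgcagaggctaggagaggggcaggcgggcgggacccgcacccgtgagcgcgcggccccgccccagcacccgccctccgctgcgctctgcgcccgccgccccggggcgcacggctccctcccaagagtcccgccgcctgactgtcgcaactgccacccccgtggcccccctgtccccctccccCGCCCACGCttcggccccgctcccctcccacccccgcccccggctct

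The Wnt5b window held an AP-1 match 191 to 185 bases before the start, and the Wnt6 window an Egr match on the reverse strand 47 to 39 bases before the start. The Wnt3 window held none of the 4 motifs. Over all 32851 promoter windows of that length in the table, 6.75% held an AP-1 match, 0.536% an Egr match, 6.91% an ETS match and 3.21% a TCF/LEF match. The table held 36 windows of 29 of the 44 Wnt genes. Among these, TCF/LEF matches stood in windows of Wnt5b (at another of its starts) and Wnt11, and ETS matches in those of Fzd10 and Tcf7. A match says only that the letters are there.

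Among the receptors, all calls after induction were lower levels except that of Fzd9 at 24h vs 8h. Fzd2 was the only receptor called at 4h vs 0h. Its levels were 1.05 and 0.84 in DMSO, 1.11 and 1.24 at 0h, 1.12 and 1.28 at 30m, 1.11 and 1.08 at 1h, 0.61 and 0.70 at 2h, -0.37 and 0.28 at 4h, -0.23 and 0.22 at 8h and -1.38 and -0.51 at 24h. The arrays of DMSO, 0h, 30m and 1h lay above those of 2h, these above those of 4h and 8h, and the 24h arrays below all others. Fzd2 fell by 1.22 ± 0.28 at 4h vs 0h (adjusted p = 0.0487), by 1.18 ± 0.28 at 8h (adjusted p = 0.0371) and by 2.12 ± 0.28 at 24h (adjusted p = 0.000706). At 24h vs DMSO it fell by 1.89 ± 0.28 (adjusted p = 0.00352), and at 24h vs 8h its difference of -0.94 ± 0.28 was called by the block fit alone (adjusted p = 0.0193, against 0.0701 without).

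Fzd10, another Frizzled receptor, was high under the inhibitor and lowest at 24h. Its levels were 0.86 and 1.03 in DMSO, 2.14 and 2.98 at 0h, 2.41 and 2.92 at 30m, 2.24 and 2.61 at 1h, 1.21 and 2.09 at 2h, 0.88 and 1.77 at 4h, 1.39 and 1.82 at 8h and 0.16 and 0.23 at 24h. The 6 arrays of 0h, 30m and 1h lay above all others and the 24h arrays below all others. Fzd10 fell by 2.36 ± 0.39 at 24h vs 0h (adjusted p = 0.00199). Its difference of 1.61 ± 0.39 at 0h vs DMSO was called by the block fit alone (adjusted p = 0.00175, against 0.0525 without). The same held for -1.23 ± 0.39 at 4h (adjusted p = 0.00748, against 0.12), -0.95 ± 0.39 at 8h (0.014, against 0.18), -1.41 ± 0.39 at 24h vs 8h (0.002, against 0.0504) and -0.75 ± 0.39 at 24h vs DMSO (0.0283, against 0.263).

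The promoter window of Fzd10 is shown as that of a receptor whose level differed in both directions over the course. It lies at chr5:128600856-128601105 on the plus strand (GRCm38.p6, RefSeq), and its capitals mark an ETS match 152 to 146 bases before the start.
Fzd10: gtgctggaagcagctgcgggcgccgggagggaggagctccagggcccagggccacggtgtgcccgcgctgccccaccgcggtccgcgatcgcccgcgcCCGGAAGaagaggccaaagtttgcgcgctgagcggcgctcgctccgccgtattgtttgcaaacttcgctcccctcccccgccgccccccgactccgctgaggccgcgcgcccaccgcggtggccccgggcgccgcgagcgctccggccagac

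Fzd8 fell at 8h and 24h. Its levels were -2.08 and -2.29 in DMSO, -1.96 and -1.76 at 0h, -1.68 and -1.67 at 30m, -1.76 and -1.58 at 1h, -1.48 and -1.85 at 2h, -1.99 and -1.98 at 4h, -2.67 and -2.63 at 8h and -2.91 and -3.08 at 24h. The 24h arrays lay below all others and the 8h arrays next to them. Fzd8 fell by 0.79 ± 0.15 at 8h vs 0h (adjusted p = 0.0164), by 1.14 ± 0.15 at 24h vs 0h (adjusted p = 0.000669) and by 0.81 ± 0.15 at 24h vs DMSO (adjusted p = 0.00831).

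Fzd5, a receptor that can act through beta-catenin, had levels of -0.41 and -0.20 in DMSO, 0.26 and -0.27 at 0h, -0.09 and -0.02 at 30m, -0.49 and -0.17 at 1h, -0.41 and -0.28 at 2h, -1.16 and -0.55 at 4h, -1.32 and -0.76 at 8h and -2.89 and -1.21 at 24h. The 24h arrays differed from each other by more than any other pair, and replicate 2 of 24h lay within the range of the 8h arrays. Fzd5 fell by 2.04 ± 0.45 at 24h vs 0h (adjusted p = 0.00898) and by 1.74 ± 0.45 at 24h vs DMSO (adjusted p = 0.0347). A second probe, well above background on all 16 arrays, gave -0.81 ± 0.31 at 24h vs 0h and -1.01 ± 0.31 at 24h vs DMSO and was not called (adjusted p = 0.0861 and 0.0618; with the block 0.0651 and 0.0396, so that the second was then called).

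Fzd4, known as the receptor for Norrin as well as for Wnt ligands, was lowest at 8h. Its levels were -0.78 and -1.04 in DMSO, -0.82 and -1.31 at 0h, -0.98 and -1.29 at 30m, -0.84 and -1.16 at 1h, -1.40 and -1.63 at 2h, -1.86 and -1.89 at 4h, -1.90 and -2.08 at 8h and -1.62 and -1.45 at 24h. The arrays of DMSO, 0h, 30m and 1h lay above all others. Fzd4 fell by 0.93 ± 0.20 at 8h vs 0h (adjusted p = 0.0234). Its differences of -0.81 ± 0.20 at 4h and -0.47 ± 0.20 at 24h vs 0h were called by the block fit alone (adjusted p = 0.00772 and 0.0236, against 0.0553 and 0.114 without), as were 0.46 ± 0.20 at 24h vs 8h and -0.63 ± 0.20 at 24h vs DMSO (adjusted p = 0.0426 and 0.0112, against 0.191 and 0.0683).

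Fzd1, close to the background, had levels of -4.18 and -4.34 in DMSO, -3.52 and -3.85 at 0h, -4.03 and -4.13 at 30m, -3.74 and -4.27 at 1h, -4.09 and -4.52 at 2h, -4.42 and -4.29 at 4h, -4.96 and -4.76 at 8h and -4.28 and -4.65 at 24h. It was not well above background on either array of 24h or on replicate 1 of 8h. Fzd1 fell by 1.17 ± 0.22 at 8h vs 0h (adjusted p = 0.0148) and was at least 1.71-fold lower at 24h than at 0h (adjusted p = 0.027). At 4h its difference of -0.67 ± 0.22 was called by the block fit alone (adjusted p = 0.0328, against 0.131 without).

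Fzd7, a receptor known for its high expression in embryonic stem cells, had levels of 1.81 and 1.61 in DMSO, 1.03 and 0.52 at 0h, 1.02 and 0.54 at 30m, 0.84 and 0.58 at 1h, 1.08 and 0.76 at 2h, 1.17 and 1.17 at 4h, 1.44 and 1.54 at 8h and 1.26 and 1.29 at 24h. The DMSO arrays lay above all others. Fzd7 fell by 0.94 ± 0.21 at 0h vs DMSO (adjusted p = 0.0397), while its second probe gave -0.43 ± 0.28 (adjusted p = 0.489). At 8h and 24h vs 0h the brighter probe stood at 0.72 ± 0.21 and 0.51 ± 0.21, called by the block fit alone (adjusted p = 0.0145 and 0.0312, against 0.0706 and 0.112). The second probe, also above background on all 16 arrays, had the opposite sign there, -0.54 ± 0.28 and -0.51 ± 0.28 (adjusted p = 0.305 and 0.23). The later direction of Fzd7 is therefore not settled by these probes.

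Fzd9 had levels of -0.07 and -0.43 in DMSO, -0.06 and 0.01 at 0h, 0.02 and 0.12 at 30m, 0.20 and 0.33 at 1h, -0.19 and -0.17 at 2h, -0.16 and -0.13 at 4h, -0.77 and -0.55 at 8h and 0.43 and -0.08 at 24h. The 8h arrays lay below all others. Fzd9 was higher at 24h than at 8h by 0.83 ± 0.18 (adjusted p = 0.0177), and its difference of -0.64 ± 0.18 at 8h vs 0h was called by the block fit alone (adjusted p = 0.03, against 0.0611 without).

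The co-receptors Lrp5 and Lrp6 were called in no comparison. Lrp5 ranged from 1.75 to 2.32 and Lrp6 from 1.84 to 2.84 over the 16 arrays. Lrp5 stood at 2.10 and 2.23 at 24h, against 1.75 and 1.86 at 0h. Lrp6 had 2.84 and 2.48 at 8h, against 2.14 and 2.08 at 0h, a difference called by the block fit alone (adjusted p = 0.0287, against 0.118 without). Fzd3, a receptor of the planar polarity branch, ranged from -1.34 to -0.19 and had -0.19 and -0.35 at 4h, against -1.34 and -0.89 at 0h, called by the block fit alone (adjusted p = 0.0209, against 0.056). Fzd6, of the same branch, ranged from -4.04 to -2.68 and had -2.68 and -3.42 at 24h, against -3.45 and -4.04 at 0h, also called by the block fit alone (adjusted p = 0.0454, against 0.0976). Lgr5, an R-spondin receptor and a known target of the pathway, was well above background on 1 of 16 arrays and was not tested.

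Leaving out single arrays, the calls of Fzd2, Fzd8 and Fzd10 at 24h vs 0h and of Fzd2 at 24h vs DMSO were kept in all 16 fits. The call of Fzd5 at 24h vs 0h was lost without 0h replicate 1 (adjusted p = 0.0678) and that of Fzd8 at 24h vs DMSO without DMSO replicate 1 (adjusted p = 0.0815). Fzd1 at 8h and Fzd9 at 24h vs 8h were lost without replicate 1 of either group compared (up to 0.144 and 0.142), and Fzd1 at 24h without 0h replicate 1 or 24h replicate 2 (up to 0.165). Fzd4 at 8h was lost without 0h replicate 1 or either array of 8h (up to 0.17) and Fzd8 at 8h without either array of 0h or 8h replicate 1 (up to 0.131). The call of Fzd2 was lost in 11 fits at 4h and in 11 at 8h, that of Fzd7 at 0h vs DMSO in 10 and that of Fzd5 at 24h vs DMSO in 9, always with the sign kept.

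Among the secreted antagonists, Wif1 was the one that rose after induction. Wif1 binds Wnt ligands through its WIF domain. Its levels were -4.63 and -5.30 in DMSO, -3.86 and -3.48 at 0h, -4.33 and -3.57 at 30m, -3.93 and -3.61 at 1h, -2.94 and -3.0 at 2h, -1.59 and -0.79 at 4h, -1.29 and -1.93 at 8h and -5.89 and -5.09 at 24h. The arrays of 4h and 8h lay above all others, and those of DMSO and 24h below all others. Wif1 rose by 2.48 ± 0.39 at 4h vs 0h (adjusted p = 0.0161) and by 2.06 ± 0.39 at 8h vs 0h (adjusted p = 0.0164). At 24h it was below background on both arrays, at least 7.96-fold lower than at 8h (adjusted p = 0.000817) and at least 1.91-fold lower than at 0h (adjusted p = 0.00782).

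Sfrp1, a secreted Frizzled-like decoy, had the largest fitted fall of the set. Its levels were -0.56 and -0.24 in DMSO, 1.48 and 1.71 at 0h, 1.41 and 1.77 at 30m, 1.32 and 1.66 at 1h, 1.02 and 1.60 at 2h, 0.18 and 1.04 at 4h, -2.17 and 0.30 at 8h and -6.23 and -2.26 at 24h. The 24h arrays lay below all others but differed from each other, and replicate 1 of 24h was not well above background. Sfrp1 was at -5.84 ± 1.08 at 24h vs 0h (adjusted p = 0.00361), a fall in which 1 of the 2 arrays of 24h measured it, with differences of -7.71 between the replicate 1 arrays and -3.97 between the replicate 2 arrays. It also fell at 24h vs DMSO by 3.84 ± 1.08 (adjusted p = 0.0456). At 24h vs 8h the difference of -3.31 ± 1.08 was called by the block fit alone (adjusted p = 0.0206, against 0.0873 without).

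Sfrp5, of the same decoy family, rose with the inhibitor and fell after induction. Its levels were -2.60 and -1.83 in DMSO, -0.45 and -0.34 at 0h, -0.59 and -0.44 at 30m, -0.99 and -0.42 at 1h, -1.18 and -0.84 at 2h, -1.92 and -1.26 at 4h, -2.65 and -1.54 at 8h and -2.84 and -2.42 at 24h. The arrays of 0h and 30m lay above those of DMSO, 2h, 4h, 8h and 24h. Sfrp5 rose by 1.82 ± 0.39 at 0h vs DMSO (adjusted p = 0.0341), fell by 1.70 ± 0.39 at 8h vs 0h (adjusted p = 0.0322) and fell by 2.23 ± 0.39 at 24h vs 0h (adjusted p = 0.00275). At 4h its difference of -1.20 ± 0.39 was called by the block fit alone (adjusted p = 0.00942, against 0.13 without).

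Sfrp2, another decoy, had levels of 0.50 and 0.07 in DMSO, 1.04 and 0.32 at 0h, 0.84 and 0.32 at 30m, 0.73 and 0.39 at 1h, 0.78 and 0.26 at 2h, -0.06 and 0.57 at 4h, -1.19 and -0.30 at 8h and -0.71 and -0.90 at 24h. The arrays of 8h and 24h lay below all others. Sfrp2 fell by 1.42 ± 0.37 at 8h vs 0h (adjusted p = 0.0476) and by 1.48 ± 0.37 at 24h vs 0h (adjusted p = 0.0154). Sfrp4 was not called by the fit and ranged from -0.58 to 1.43. It had -0.16 and 0.19 at 24h, against 1.43 and 1.04 in DMSO, a difference of -1.22 ± 0.47 called by the block fit alone (adjusted p = 0.034, against 0.131 without).

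Dkk1, the inhibitor of Lrp5 and Lrp6, was near the background, with levels of -5.44 and -4.61 in DMSO, -4.51 and -4.34 at 0h, -4.96 and -4.29 at 30m, -3.37 and -4.10 at 1h, -4.06 and -4.35 at 2h, -4.98 and -5.06 at 4h, -7.00 and -5.71 at 8h and -6.51 and -5.73 at 24h. The 4 arrays of 8h and 24h lay below all others, none of them well above background, and Dkk1 was tested through 0h, 1h and 2h. It was at least 1.53-fold lower at 8h than at 0h (adjusted p = 0.0351) and at least 1.13-fold lower at 24h than at 0h (adjusted p = 0.0226).

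Dkk3, a relative of Dkk1 whose part in the pathway is less settled, had levels of 2.06 and -0.55 in DMSO, 0.42 and 0.59 at 0h, 0.48 and 0.49 at 30m, 0.33 and 0.33 at 1h, -0.03 and 0.16 at 2h, -1.56 and -0.73 at 4h, -2.37 and -0.95 at 8h and -2.21 and -1.41 at 24h. Its DMSO arrays differed from each other more than those of any other group. Dkk3 fell by 2.31 ± 0.72 at 24h vs 0h (adjusted p = 0.0406) and by 2.56 ± 0.72 at 24h vs DMSO (adjusted p = 0.0456). Dkk2 was well above background on 0 arrays and Dkk4 on 2, replicate 2 of 0h and of 24h, and neither was tested.

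**Figure D4:**
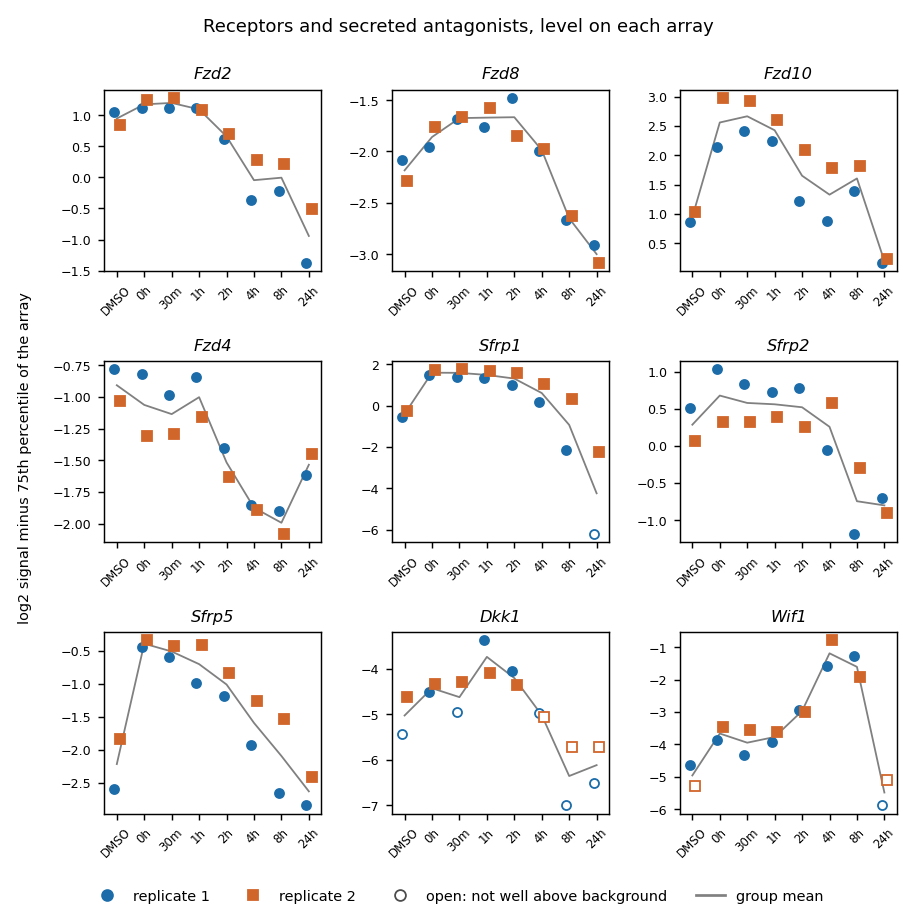
Level (log2 signal minus the array's 75th percentile, vertical axis) of 4 Frizzled receptors and 5 secreted antagonists on each array, by group; circles are replicate 1, squares replicate 2, open symbols are arrays where the probe was not well above background, and lines join group means. Fzd2, Fzd8, Fzd10, Sfrp1 and Sfrp5 are lowest at 24h, and Wif1 is highest at 4h and 8h.

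Leaving out single arrays, the calls of Sfrp1 and Sfrp5 at 24h vs 0h and of Wif1 at 24h vs 8h were kept in all 16 fits. Wif1 was lost at 4h without either array of 0h (adjusted p up to 0.142), at 8h without either array of 0h or 8h replicate 1 (up to 0.17) and at 24h vs 0h without 24h replicate 1 or 0h replicate 2 (up to 0.0782). Sfrp5 was lost at 8h without either array of 0h or 8h replicate 1 (up to 0.29), and at 0h vs DMSO without either array of DMSO, 0h or 30m (up to 0.235). Sfrp2 at 24h was lost without 0h replicate 1 or either array of 24h (up to 0.118), and Dkk1 at 24h without either array of 0h or 24h replicate 1 (up to 0.172). The call was lost in 15 fits for Sfrp2 at 8h, in 5 for Dkk1 at 8h, in 10 for Dkk3 at 24h vs 0h and in 13 each for Sfrp1 and Dkk3 at 24h vs DMSO, always with the sign kept.

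At the nuclear end of the pathway, Axin2, the feedback target, rose at 24h. The levels of its brightest probe were -3.77 and -3.82 in DMSO, -5.32 and -4.26 at 0h, -4.75 and -4.16 at 30m, -4.61 and -4.04 at 1h, -4.44 and -4.38 at 2h, -4.99 and -5.14 at 4h, -4.98 and -4.50 at 8h and -3.18 and -3.66 at 24h. The 24h arrays lay above all others, and those of DMSO were next. Axin2 rose by 1.37 ± 0.35 at 24h vs 0h (adjusted p = 0.0173), where 1 of the 2 arrays of 0h measured it, and by 1.32 ± 0.35 at 24h vs 8h (adjusted p = 0.0429), where 1 of the 2 arrays of 8h did. The first of these calls was lost without replicate 1 of 0h or of 24h (adjusted p up to 0.132) and the second in 12 of the 16 fits that leave out 1 array.

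A second probe of Axin2 was well above background on 7 arrays. It stood at -1.88 and -1.74 at 24h, against -4.58 and -4.50 at 0h and -3.13 and -2.76 in DMSO. The arrays of 24h again lay above all others. By this probe Axin2 rose by 2.73 ± 0.31 at 24h vs 0h (adjusted p = 0.000336) and by 1.14 ± 0.31 at 24h vs DMSO (adjusted p = 0.0429), and it fell by 1.59 ± 0.31 at 0h vs DMSO (adjusted p = 0.0262). By the same probe it rose by 3.14 ± 0.31 at 24h vs 8h (adjusted p = 0.000792), where 1 of the 2 arrays of 8h measured it. At 4h it was at least 1.29-fold lower than at 0h (adjusted p = 0.0371), where the brightest probe stood at -0.27. The brightest probe was not called at 24h vs DMSO or 0h vs DMSO, at 0.37 ± 0.35 and -0.99 ± 0.35.

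The Axin2 promoter window, shown because Axin2 is the reporter gene of the pathway, lies at chr11:108920099-108920348 on the plus strand (GRCm38.p6, RefSeq). It held none of the 4 motifs.
Axin2: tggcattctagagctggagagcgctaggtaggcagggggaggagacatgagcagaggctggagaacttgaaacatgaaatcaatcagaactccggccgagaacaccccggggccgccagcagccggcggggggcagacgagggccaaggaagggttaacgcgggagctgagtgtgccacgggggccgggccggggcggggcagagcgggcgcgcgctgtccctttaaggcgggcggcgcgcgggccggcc

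Lef1, a nuclear partner of beta-catenin, was called in no comparison by its brightest probe, with or without the block. That probe stood at 4.18 and 2.89 at 24h, 3.31 and 2.20 at 8h and 2.0 and 0.26 at 0h, and replicate 1 lay above replicate 2 in each of these groups by more than 1 log2 unit. The difference at 24h vs 0h was 2.40 ± 1.82 (adjusted p = 0.41). Its SE also holds 1 dim spot, -6.72 on replicate 1 of 2h, where the second probe gave -0.24, and the spot on replicate 1 of DMSO was left out as an outlier, so that DMSO enters with 1 array. The second probe, well above background on all 16 arrays, stood at 1.94 and 0.59 at 24h, -0.53 and -2.20 at 0h and 2.08 and 0.66 in DMSO. Replicate 1 lay above replicate 2 by more than 1 log2 unit in each of these groups, while the differences within a replicate number were close to each other: 2.47 and 2.79 at 24h vs 0h and -2.62 and -2.86 at 0h vs DMSO. Without the block this probe was not called (24h vs 0h 2.63 ± 1.13, adjusted p = 0.125, and 0h vs DMSO -2.74 ± 1.13, adjusted p = 0.24). With the block, an alternative chosen after its values were seen, it was called higher at 24h vs 0h (adjusted p = 0.000119) and at 8h vs 0h (adjusted p = 0.00267), and lower at 0h vs DMSO (adjusted p = 0.000586).

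Tcf7, the TCF protein also known as Tcf1, had 1.53 and 0.84 at 24h and 1.62 and 0.85 at 8h, against 0.64 and 0.18 at 0h. The lower array of 24h and that of 8h lay above both arrays of 0h. Its differences of 0.82 ± 0.37 at 8h and 0.78 ± 0.37 at 24h were called by the block fit alone (adjusted p = 0.00947 and 0.00477, against 0.226 and 0.165 without), as was 0.55 ± 0.37 at 24h vs DMSO (0.0368, against 0.404). The second probe gave 1.13 ± 0.40 at 8h and 1.08 ± 0.40 at 24h (adjusted p = 0.00296 and 0.00109 with the block, against 0.123 and 0.0766 without).

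**Figure D5:**
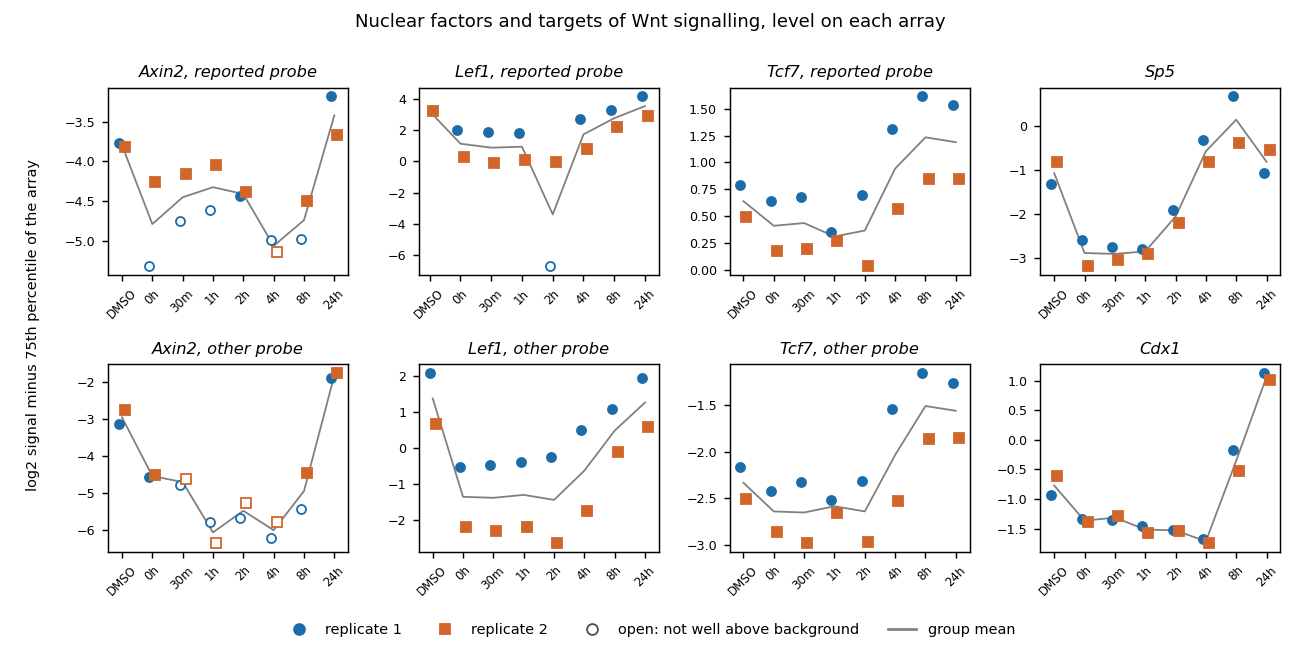
Level (log2 signal minus the array's 75th percentile, vertical axis) of both probes of Axin2, Lef1 and Tcf7 and of the targets Sp5 and Cdx1 on each array, by group; circles are replicate 1, squares replicate 2, open symbols are arrays where the probe was not well above background, and lines join group means. Axin2 and Cdx1 are highest at 24h, and Sp5 is lowest from 0h to 1h. Lef1 lacks a point for replicate 1 of DMSO on its brightest probe.

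Other genes of the pathway were counted on 5 lists, and their counts at 24h vs 0h stand beside 10.8% of all tested genes called higher and 12.9% lower, 23.7% in all. Of 22 tested genes listed as beta-catenin targets or genes that TCF proteins act on, 4 rose and 5 fell at 24h vs 0h. Cdx1, a homeobox gene, had 1.13 and 1.00 at 24h, against -1.34 and -1.39 at 0h, and rose by 2.43 ± 0.15 (adjusted p = 1.97e-05). Sp5, a zinc finger gene known as a direct target, had -1.07 and -0.55 at 24h and -2.58 and -3.18 at 0h, against -1.31 and -0.82 in DMSO. It fell by 1.81 ± 0.36 at 0h vs DMSO (adjusted p = 0.0276) and rose by 2.07 ± 0.36 at 24h vs 0h (adjusted p = 0.0027). Cdx2, below background on both arrays of 0h and tested through later groups in which it was high, was at least 12.3-fold higher (adjusted p = 0.00185) and Myc rose by 3.84 ± 0.60. The 5 that fell, Tbx3 (-3.20 ± 0.41), Id2 (-2.45 ± 0.41), Tfcp2l1 (-2.36 ± 0.65), Esrrb (-2.0 ± 0.37) and Klf2 (-1.55 ± 0.26), include Esrrb, Tfcp2l1, Klf2 and Tbx3, which are also known as transcription factors of self-renewal. The list's median was -0.17, beside -0.01 for all tested genes. In 0h vs DMSO 1 of the 22 rose (Tnfrsf19, 0.80 ± 0.14) and 1 fell (Sp5), beside 2.21% of all tested genes called higher and 1.28% lower.

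Of 16 tested nuclear partners, 2 rose and 2 fell at 24h vs 0h, 4 in all, a share near the 23.7% of all tested genes. Tcf7l1, the TCF protein that represses self-renewal genes in embryonic stem cells, had 0.03 and 0.61 at 24h, against 2.77 and 2.76 at 0h, and fell by 2.44 ± 0.28 (adjusted p = 0.000322). Its 24h arrays also lay below those of DMSO, at 1.84 and 1.88. The co-repressor Tle3 fell by 1.25 ± 0.23, while Tle4 rose by 1.33 ± 0.37 and Ctbp2 by 0.91 ± 0.27. The list's median was -0.09. In 0h vs DMSO 0 of the 16 were called (3 with the block), beside 3.49% of all tested genes (14.9% with the block).

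Of 26 tested genes of cytoplasmic transduction and the destruction complex, 0 rose and 6 fell at 24h vs 0h. The share called in either direction was near the 23.7% of all tested genes, of which 10.8% were higher and 12.9% lower. Frat1, an inhibitor of Gsk3, had -1.59 and -1.54 at 24h and 0.11 and -0.05 at 0h, against -1.15 and -1.19 in DMSO. It rose by 1.20 ± 0.12 at 0h vs DMSO (adjusted p = 0.00207) and fell by 1.59 ± 0.12 at 24h vs 0h (adjusted p = 5.11e-05). Btrc, which marks beta-catenin for breakdown, rose by 1.1 ± 0.23 and fell by 1.32 ± 0.23 in the same comparisons, and Gsk3b, the kinase of the complex, rose by 0.65 ± 0.13 and fell by 0.74 ± 0.13. Dact3, Frat2 and Dvl2 fell at 24h vs 0h by 1.22 ± 0.34, 0.87 ± 0.17 and 0.43 ± 0.13. The list's median change was 0.12 at 0h vs DMSO and -0.08 at 24h vs 0h. The inhibitor and induction comparisons share the 0h arrays.

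Of 19 tested genes of ligand release and the cell surface, 3 rose and 3 fell at 24h vs 0h, beside 10.8% and 12.9% of all tested genes. Wls, which carries Wnt ligands out of the cell, had -3.87 and -2.53 at 24h, against -1.29 and -1.22 at 0h, and fell by 1.95 ± 0.37 (adjusted p = 0.00404). The antagonist Apcdd1, measured on 1 of the 2 arrays of 24h, fell by 1.66 ± 0.29 and Reck, a co-receptor for Wnt7 ligands, by 0.85 ± 0.18. Kremen2, a partner of Dkk1, rose by 0.87 ± 0.17, the receptor Ror2 by 0.82 ± 0.17, and Sost, another inhibitor of Lrp5 and Lrp6, was at least 3.02-fold higher (adjusted p = 0.00241). Sost was well above background on the 24h arrays only and was tested through them. The list's median was -0.15. In 0h vs DMSO 0 of the 19 were called (2 with the block), beside 3.49% of all tested genes (14.9% with the block). Of 14 tested genes of the planar polarity branch, 0 rose and 2 fell at 24h vs 0h, beside 10.8% and 12.9% of all tested genes. Vangl1 fell by 1.52 ± 0.21 (adjusted p = 0.000895) and Celsr3 by 1.00 ± 0.12 (adjusted p = 0.000418), and the list's median was -0.01. Celsr3 rose by 0.61 ± 0.12 at 0h vs DMSO.

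Some markers of cell types were also called at 24h vs 0h, where 23.7% of all tested genes were. Of the 12 embryonic stem cell markers, 1 was called higher (Utf1) and 5 lower (Nanog, Klf4, Fbxo15, Esrrb and Zfp42) at 24h vs 0h. The summed level of the list, relative to the 75th percentile of each array, was 696 and 745 at 24h, against 910 and 858 at 0h. Of 7 tested primitive endoderm markers 2 were called higher (Gata6 and Pdgfra). Pdgfra was well above background on the 24h arrays only, was tested through them and was at least 2.71-fold higher at 24h than at 0h. The list's sum was 3.36 and 1.34 at 24h, against 0.532 and 0.501 at 0h, and without Gata6 it was 0.556 and 0.44 at 24h, against 0.473 and 0.444 at 0h. Ttr was above background on 0 arrays and Afp on 1. Of 6 tested trophoblast markers 2 were called higher (Cdx2, which is also on the target list, and Hand1), with a sum of 15 and 15 at 24h, against 18.3 and 35.1 at 0h. Most of this sum was Tfap2c, with a mean level of 3.16 at 24h and 4.50 at 0h. Its fall of 1.34 ± 0.58 was called by the block fit alone (adjusted p = 0.00453, against 0.129 without). Ascl2, the next brightest, rose by 0.95 ± 0.42, also called by the block fit alone (adjusted p = 0.000951, against 0.131). Of 6 tested markers of mesendoderm and primitive streak, 1 was called higher (Mesp1) and 2 lower (Gsc and Fgf8), with a sum of 0.61 and 0.546 at 24h, against 0.629 and 0.845 at 0h. Mesp1 was well above background at 8h and 24h only, was tested through these groups and was at least 4.82-fold higher at 24h than at 0h. Of the 5 early epiblast markers 1 was higher (Pou3f1), of the 5 neural ones 2 were lower (Pax6 and Tubb3), and of the 5 tested fibroblast markers 1 was higher (Thy1), while Lum and Postn were above background on 0 arrays. The sums of these 3 lists were 110 and 102 at 24h, against 71.3 and 45 at 0h, for early epiblast, 4.39 and 3.92 at 24h, against 10.4 and 14.2 at 0h, for neural cells, and 14.3 and 13.6 at 24h, against 3.07 and 3.02 at 0h, for the fibroblast list. Most of the neural sum at 0h was Tubb3, without which the sum was 3.47 and 2.01 at 24h, against 2.74 and 3.11 at 0h. Nearly all of the fibroblast sum was Thy1, without which it was 0.474 and 0.369 at 24h, against 0.366 and 0.379 at 0h. The sum of the mesendoderm list was higher earlier, at 3.74 and 1.86 at 4h and 1.78 and 1.22 at 8h. Evx1 of that list rose by 3.84 ± 0.54 at 4h vs 0h and by 2.79 ± 0.54 at 8h (adjusted p = 0.0098 and 0.0173). At 24h vs 0h it stood at 0.07 ± 0.54. Cdx2 was at least 30.1-fold higher at 4h than at 0h (adjusted p = 0.00543), and Thy1 rose by 2.55 ± 0.21 at 8h (adjusted p = 0.000328). Of all tested genes 1.49% were called higher at 4h and 3.12% at 8h. The part of these shifts in the changes of the Wnt genes was not tested.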

How the data were processed

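The arrays were 1-colour Agilent arrays read with Feature Extraction 11.0.1.1, per the file headers. The deposited intensities are the processed signals of that software, already corrected for background within each array and not scaled between arrays. The headers give a green channel, while the labels name Cy5. The deposited value table holds the same intensities rounded, and each of its columns matched 1 scanner file (within 0.6%), which for 8 of 16 arrays belongs to another sample record. Samples here follow the value table. One label gives the 4h group in minutes, while its title and time point give hours.

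From these, the log2 of each signal minus the array's 75th percentile was taken. Spots with outlier flags were left out, and for each gene the probe with the highest mean signal was kept. Of 55681 probes 27656 matched 1 gene and 28025 none, with names from RefSeq (GRCm38.p6). A gene was tested if both arrays in 1 or more groups gave its probe a signal well above background. One limma fit (version 3.58.1, R 4.3.3) of 8 group means used all 16 arrays, with Benjamini-Hochberg adjustment over 15660 genes. The probability threshold was 0.05. No arrays were identical. The fit was also run on simulated data with independent noise on each array. These lacked the pairing of replicates described next, so that setting was not tested.

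The replicate number pairs the arrays: the replicate differences of the 8 groups correlated at 0.33 to 0.66 over all 28 pairs of groups, and the number is also the slide. A fit with the replicate block was therefore run, as were fits with other scalings, filters, sample assignments, without each array and on 2 groups alone. The fit of a gene's other probe, with and without the block, was chosen after seeing the data. For normexp (offset 50) the median spot and background signals were used in place of the mean spot signal. Where no array of a group was well above background, a change is given as a bound against the lowest signal above background. The members, lists, motifs and rules were chosen with earlier results of these data known. Python 3.11.15, pandas 2.3.3, numpy 2.4.6 and matplotlib 3.10.9 were used. Genes called in at least 1 comparison have all 16 values printed, and from each list of other pathway genes at most 6 called genes per comparison are named.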

Additional observations from a re-analysis of the deposited data

Results flagged for a closer look

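Lgr5, the R-spondin receptor that is also a target of the pathway, was not tested because its probe was well above background on 1 array only, replicate 1 of 24h, at -3.39. Replicate 2 of 24h stood at -5.09, against -7.08 and -7.55 at 0h and -6.71 and -7.21 in DMSO, all of them not well above background. The 24h arrays were the highest of the 16, and with 1 array measured the difference has no replicate check.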

How the results depend on the processing

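With each array given to the sample record that holds its scanner file, the count of Wnt genes called was 0 at 0h vs DMSO, 0 at 4h, 0 at 8h and 1 at 24h (each vs 0h), 0 at 24h vs 8h, 3 at 24h vs DMSO and 2 by the F test, and 6 changes turned their sign: Fzd2 at 4h (0.39) and 8h (0.37), Wnt5b at 8h (-0.087), Sfrp5 at 8h (0.20), Wif1 at 8h (-0.026) and Dkk3 at 24h (0.036). Of 42 calls of single genes that could be tested again, 36 kept their direction without a call. The cause was not tested. The summed level of the 4 stimulus genes was 8.96 and 4.60 on the 0h arrays and 18.5 and 17.9 on the DMSO arrays under the value table. With the other assignment it was 8.96 and 179 at 0h and 18.5 and 159 in DMSO. Which assignment is right was not tested. With the replicate block the counts were 1 at 2h, 9 at 4h and 19 at 8h (vs 0h), 12 at 24h vs 8h and 12 at 24h vs DMSO, and all 48 calls of single genes were kept. Of these 48, 42 were kept with quantile normalization, 34 with normexp, 34 without the filter on dim probes and 32 with median centring. Fits of only the 2 groups compared kept 10 of 48, and a gene's other probe, without the block, kept 2 of 9. The calls lost in these settings kept their direction. Quantile normalization gave 1 at 2h, and median centring gave 6 at 8h vs 0h and 4 at 24h vs DMSO. Without the filter on dim probes the counts were 2 at 0h vs DMSO and 4 at 24h vs DMSO, and with only probes above background on all 16 arrays 8 at 24h vs 0h, fewer genes being tested. A fit of only the 2 groups compared, with fewer samples, gave 0 at 0h vs DMSO, 4h, 8h, 24h vs 8h and 24h vs DMSO; it gave no F test. Without 1 array in turn the counts ran from 1 to 6 at 0h vs DMSO, 0 to 0 at 30m and 1h, 0 to 1 at 2h, 0 to 3 at 4h, 2 to 13 at 8h and 8 to 15 at 24h (vs 0h), 1 to 9 at 24h vs 8h, 1 to 9 at 24h vs DMSO and 13 to 17 by the F test. The count at 24h vs 0h was 8 without 0h replicate 1. At 8h it was 2 without replicate 1 of 0h or 8h and 5 without 0h replicate 2; at 4h it was 1 without replicate 1 of 0h or 4h and 0 without 0h replicate 2; and at 2h it was 1 without 2h replicate 1. At 0h vs DMSO it was 1 without any 1 array of DMSO or 0h and 3 without any 1 array of 30m or 1h. At 24h vs 8h it was 1 without replicate 1 of either group. At 24h vs DMSO it was 1 without DMSO replicate 1, 2 without 24h replicate 1, 3 without any 1 array of 30m or 1h and 4 without any 1 array of 0h or 2h. Each fit without 1 array leaves 1 array in a group, and the counts over all tested genes varied with the array left out as well. The directions of all 48 calls were the same within each slide. The calls were chosen by the mean of these same slide differences, so this is no separate check. The median of all genes moved by over 0.1 (log2) only with median centring at 2h vs 0h (-0.14). With 2 arrays a group, and with probes such as Wnt3, Wnt8a, Dkk1 and Wif1 near the background, precision is limited by the number of arrays and by signal over background.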
